A study of Mus musculus with 14 samples.

Results

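The Fox genes encode the forkhead transcription factors, and they were taken here as the protein-coding mouse genes of GENCODE M21 (GRCm38, the mm10 assembly) whose symbol is Fox followed by a subfamily letter from a to s and a number. This rule found 44 genes of 21938 protein-coding genes, in 19 subfamilies. Their chromatin was read in 81K1 cells, a clone (K1) of the mouse embryonic stem cell (ESC) line OG2 that carries a doxycycline-inducible shRNA against Smarcb1 in the Rosa26 locus. Control cells were untreated, and Smarcb1 knockdown (kd) cells received 1 µg/ml doxycycline for 72 h. Both groups carry the shRNA cassette, come from the same clone and were grown with LIF on gelatine. Chromatin immunoprecipitation with sequencing (ChIP-seq) measured 2 proteins, Smarca4 and Ezh2, and the 3 histone marks H3K4me3, H3K27me3 and H3K27ac, with 1 library for each of these 5 antibodies in each condition.

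Forkhead factors bind DNA through a winged-helix domain, and many of them act as switches of cell fate. Foxa factors open chromatin in endoderm, Foxc and Foxf factors pattern mesoderm and Foxj1 drives the program of motile cilia. Other members work in dividing or stressed cells of many kinds, such as Foxm1 in mitosis and the FoxO factors, which Akt signalling keeps out of the nucleus. In ESCs many promoters of developmental regulators are bivalent, which means that they carry H3K4me3, a mark of promoters, together with H3K27me3, the repressive mark written by Polycomb repressive complex 2 through its enzyme Ezh2. Smarca4 is the ATPase of the esBAF remodelling complex, of which Smarcb1 is a core subunit, and H3K27ac marks active promoters and enhancers.

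The lists held 79014 Smarca4 peaks in control and 72339 in kd, 6708 and 5364 Ezh2 peaks, 22909 and 18320 H3K27me3 islands, 39091 and 51100 H3K27ac islands, and 26130 and 33506 H3K4me3 islands. They carry no read counts, so the depth of each library cannot be read from them. The paper gives only an approximate depth, for the Ezh2, H3K27ac and H3K4me3 libraries. A region missing from a list is a missing call and not a measured loss. With 1 library per antibody and condition no difference between control and kd has a replicate check, and no test was made. Of the control Ezh2 list 45.9% of peaks lay mostly in repeat-masked sequence, against 3.24% of the kd list. Of 10 ESC markers, among them Pou5f1, Nanog and Sox2, 7 had an active promoter in control and 8 in kd, and of 6 markers of fibroblasts or feeder cells none did. Over all genes 13.4% of promoters were active in control and 25.1% in kd. Of the remaining ESC markers, Klf4 was bivalent in control and active in kd, and Tbx3 was bivalent in both conditions. Esrrb had H3K27me3 without H3K4me3 at its promoter in both. Only chromatin of these markers was read, not their expression, and the level of Smarcb1 itself cannot be read from the lists.

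A gene region was the gene itself with 1 kb before its transcription start site (TSS), and it was called for an antibody when a region of the list overlapped it by at least 1 bp. A promoter was the TSS with 1 kb on each side. It was called bivalent with H3K4me3 and H3K27me3, and active with H3K4me3 and H3K27ac but no H3K27me3. The other classes were H3K4me3 only, H3K27me3 without H3K4me3, and neither. In control, 26 of the 44 Fox promoters were bivalent, 59.1% with a 95% Wilson interval of 44.4 to 72.3% that covers counting error only, against 21.2% of all protein-coding genes. The active class held 2 Fox promoters, those of Foxm1 and Foxn2, or 4.55% (1.26 to 15.1%), against 13.4% of all genes. Foxh1, Foxk1, Foxk2, Foxp3 and Foxp4 carried H3K4me3 only. At their promoters Foxa2, Foxb2, Foxi1, Foxi2, Foxj3, Foxl1, Foxn1, Foxq1, Foxr1 and Foxs1 carried H3K27me3 without H3K4me3, and Foxr2 carried neither mark. In kd there were again 26 bivalent Fox promoters against 21.6% of all genes, while the active class held 8, or 18.2% (9.51 to 32.0%), against 25.1% of all genes. The bivalent number stayed level through an exchange, since 23 promoters were bivalent in both conditions, 3 left the class (Foxj2, Foxo3 and Foxo4) and 3 entered it (Foxa2, Foxb2 and Foxl1). Over all genes 81.4% of the bivalent promoters in control were bivalent in kd, close to the 88.5% that 23 of 26 makes here.

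**Figure D1:**
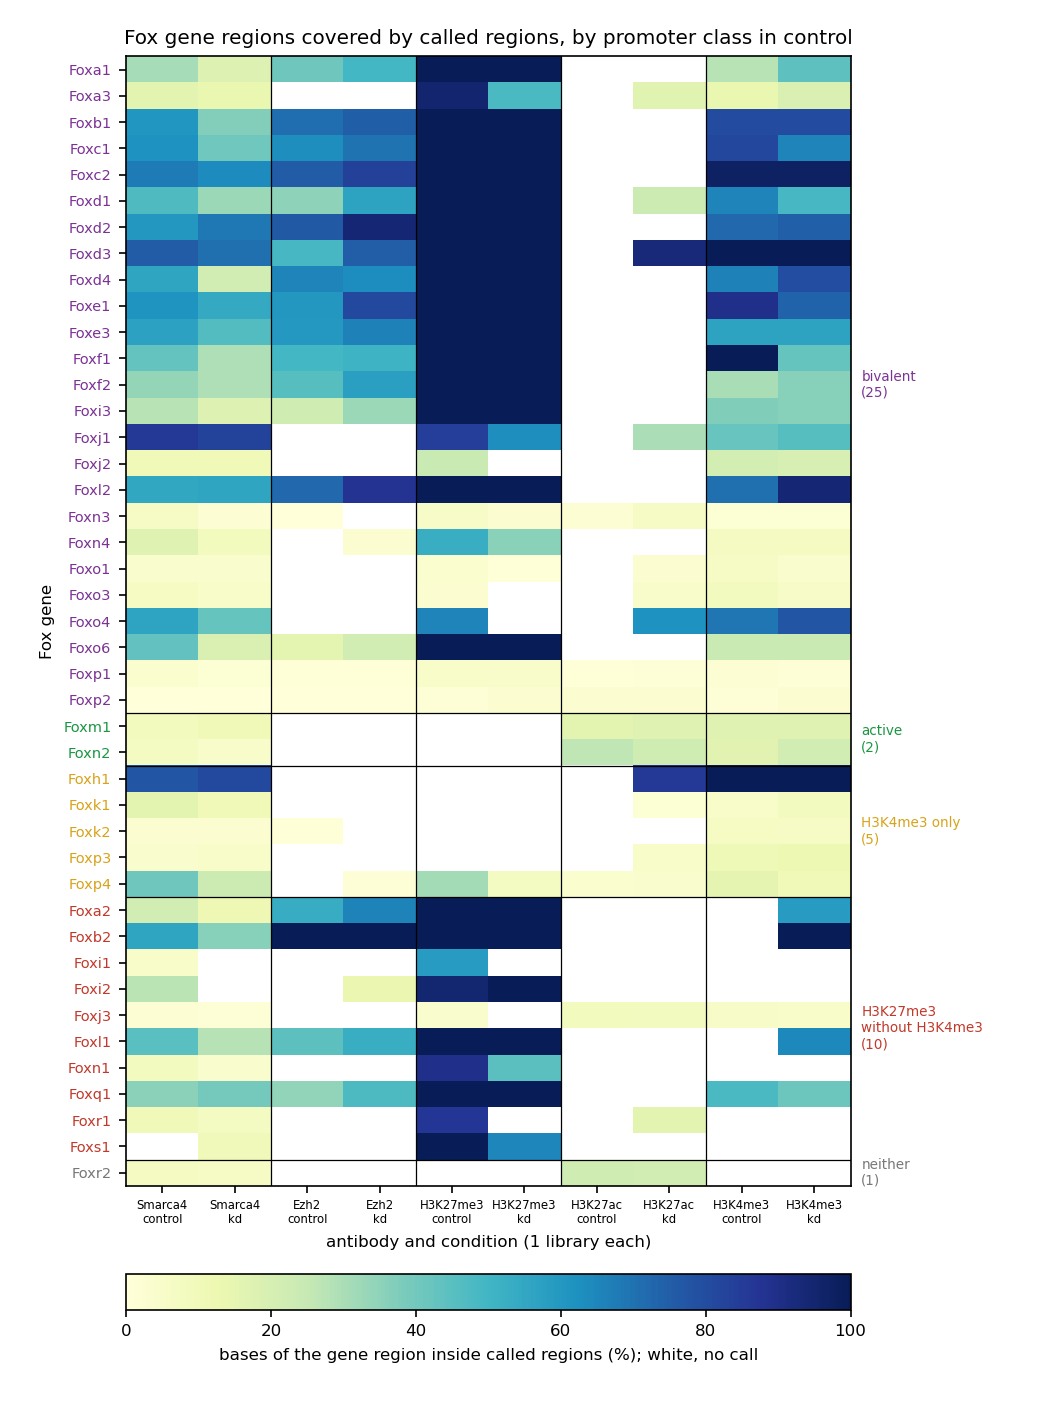
Share of each Fox gene region, in percent of its bases, that lay inside called regions, for 43 of the 44 genes (rows, grouped and coloured by promoter class in control) and 10 libraries (columns, 1 per antibody and condition, white where nothing was called). The compact bivalent genes from Foxb1 to Foxf2 are covered by H3K27me3 nearly from end to end in both conditions, and H3K27ac fills more rows in kd (19) than in control (8).

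The promoter sequences of a few members show the range of CpG content within the family. For 28 of the 44 genes RefSeq gave a promoter on GRCm38.p6, from 250 bases before to 50 after the start. The rule for printed sequences gave Foxd1, Foxr2 and Foxj2. Foxd1 was the bivalent member with the highest control Ezh2 score at its promoter among those with an entry (Foxf1 and Foxc2 scored higher), and Foxr2 was the member with neither mark. Foxj2 was the member of changed class with the highest Smarca4 score at its promoter in either list, which was 546 in kd. Foxo3, Foxi1 and Foxa2 were added after their values were seen, as a promoter that went from bivalent to active, a promoter with an H3K27me3 call in control alone and a promoter that entered the bivalent class. The windows are chr13:98353995-98354294 on the plus strand for Foxd1, chr6:122819934-122820233 on the plus strand for Foxj2, chr10:42276646-42276945 on the minus strand for Foxo3, chr2:148046920-148047219 on the minus strand for Foxa2, chr11:34208040-34208339 on the minus strand for Foxi1 and chrX:153118538-153118837 on the plus strand for Foxr2. For Foxj2 the RefSeq start lies 270 bp from the GENCODE start used for the classes. Each sequence is written 5′ to 3′ along the gene, with every CpG dinucleotide in capitals:
Foxd1: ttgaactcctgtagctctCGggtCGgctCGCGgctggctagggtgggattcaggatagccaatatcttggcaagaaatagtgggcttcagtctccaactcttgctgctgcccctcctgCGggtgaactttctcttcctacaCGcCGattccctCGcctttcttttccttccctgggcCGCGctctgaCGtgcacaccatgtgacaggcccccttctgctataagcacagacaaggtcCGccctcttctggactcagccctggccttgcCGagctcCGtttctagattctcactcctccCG
Foxj2: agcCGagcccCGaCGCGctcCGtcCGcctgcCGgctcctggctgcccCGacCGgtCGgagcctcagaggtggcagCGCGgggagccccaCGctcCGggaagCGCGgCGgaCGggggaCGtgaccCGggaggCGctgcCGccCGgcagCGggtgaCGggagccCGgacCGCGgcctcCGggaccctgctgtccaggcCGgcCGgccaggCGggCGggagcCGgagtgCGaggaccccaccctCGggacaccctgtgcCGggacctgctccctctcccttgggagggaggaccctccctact
Foxo3: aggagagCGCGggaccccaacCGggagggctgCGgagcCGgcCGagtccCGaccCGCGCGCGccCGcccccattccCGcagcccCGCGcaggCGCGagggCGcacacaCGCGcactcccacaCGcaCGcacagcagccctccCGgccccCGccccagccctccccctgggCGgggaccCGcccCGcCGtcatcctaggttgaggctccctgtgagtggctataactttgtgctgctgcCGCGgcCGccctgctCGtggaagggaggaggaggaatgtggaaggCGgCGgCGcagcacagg
Foxa2: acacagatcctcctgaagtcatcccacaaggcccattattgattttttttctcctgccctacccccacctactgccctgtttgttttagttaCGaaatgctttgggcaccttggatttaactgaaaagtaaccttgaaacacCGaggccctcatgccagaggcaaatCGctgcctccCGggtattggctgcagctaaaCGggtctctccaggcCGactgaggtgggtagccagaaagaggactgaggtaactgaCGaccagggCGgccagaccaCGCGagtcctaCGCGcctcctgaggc
Foxi1: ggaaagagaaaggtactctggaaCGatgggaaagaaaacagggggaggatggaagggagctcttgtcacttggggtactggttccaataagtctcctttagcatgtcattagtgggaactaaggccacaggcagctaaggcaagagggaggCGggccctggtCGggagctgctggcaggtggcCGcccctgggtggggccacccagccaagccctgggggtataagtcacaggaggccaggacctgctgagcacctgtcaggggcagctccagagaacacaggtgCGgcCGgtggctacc
Foxr2: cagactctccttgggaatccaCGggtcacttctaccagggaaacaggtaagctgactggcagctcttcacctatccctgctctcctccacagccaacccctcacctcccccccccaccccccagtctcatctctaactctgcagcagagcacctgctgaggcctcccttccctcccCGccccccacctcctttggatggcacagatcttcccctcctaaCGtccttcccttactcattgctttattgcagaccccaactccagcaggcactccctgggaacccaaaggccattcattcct

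Foxo3 and Foxj2 held 35 and 37 CpGs in their 300 bases, Foxd1 held 15, Foxa2 12, Foxi1 6 and Foxr2 3. The count did not separate the classes, since Foxd1, bivalent in both conditions, was closer to Foxa2 than to Foxj2 and Foxo3, which were bivalent in control. No promoter that was active or H3K4me3 only in control is among these sequences. Over all members, measured in the same window around the GENCODE TSS, the observed over expected CpG ratio had a median of 0.79 (0.41 to 1.11) at the 26 bivalent promoters. It was 1.09 at Foxm1 and 0.76 at Foxn2, the active pair. At the 10 promoters with H3K27me3 but no H3K4me3 the median was 0.33 (0.13 to 0.68), so that most of these promoters were poorer in CpG than most bivalent ones, though the ranges overlap. The same medians over all protein-coding genes were 0.72 for bivalent promoters, 0.82 for active ones and 0.31 for H3K27me3 without H3K4me3. Within the last class, Foxa2 (0.55), Foxb2 (0.48) and Foxl1 (0.60), whose promoters were called for H3K4me3 in kd, lay above Foxi1, Foxi2, Foxj3, Foxn1, Foxq1 and Foxs1 (0.13 to 0.37), and Foxr1 (0.68) lay above all of them. At Foxj3 and Foxq1 H3K4me3 was called inside the gene, outside the sequence window measured here. Foxh1 stood apart from the other promoters with H3K4me3 only, at 0.15 against 0.60 to 1.29.

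**Figure D2:**
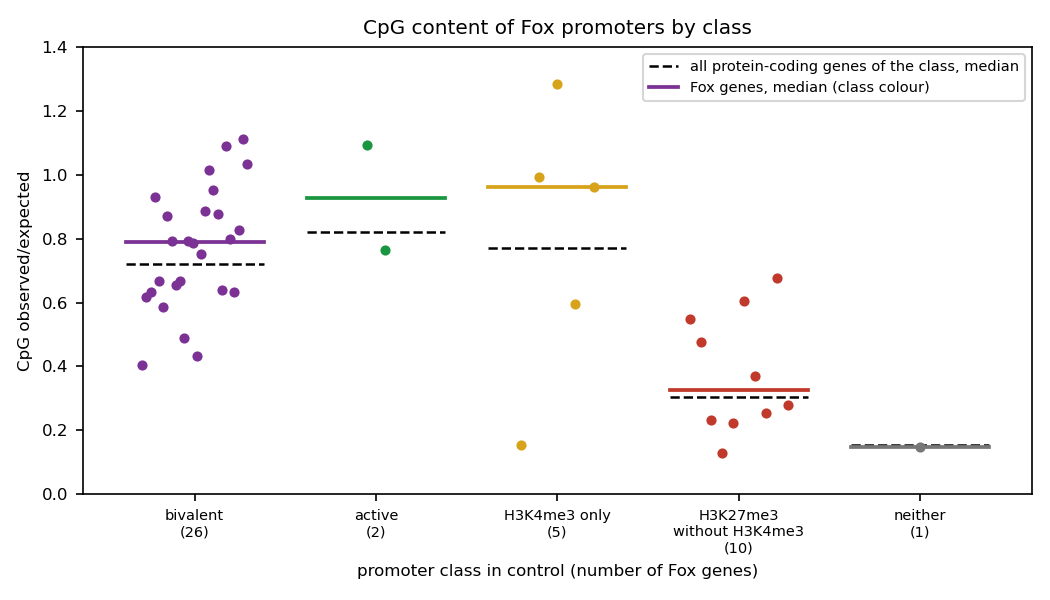
CpG observed over expected ratio in the 300 bases around the GENCODE TSS (y axis) for each Fox promoter, by its class in control (x axis), with the Fox median as a coloured line and the median over all protein-coding genes of the class as a dashed line. Bivalent promoters centre on 0.79 and promoters with H3K27me3 but no H3K4me3 on 0.33.

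Ezh2 divided the bivalent Fox genes. In control, 18 of the 26 bivalent promoters held an Ezh2 peak, 69.2% (50.0 to 83.5%), against 29.2% of all bivalent promoters. In kd 19 of the same 26 did, 73.1% (53.9 to 86.3%), against 50.8%. Smarca4 was present at 26 of 26 in both conditions, against 97.5% in control and 97.8% in kd over all bivalent promoters. Among the 18 with Ezh2 were Foxa1, Foxb1, Foxc1, Foxc2, Foxd1 to Foxd4, Foxe1, Foxf1, Foxl2, Foxo6 and Foxp1. The 8 without Ezh2 were Foxa3, Foxj1, Foxj2, Foxn3, Foxn4, Foxo1, Foxo3 and Foxo4. The groups also differed in gene structure. Among the 18, 16 had at most 2 exons in any coding transcript and the median gene length was 3981 bp, whereas 1 of the 8 had at most 2 exons and their median length was 22549 bp. H3K27me3 islands over the promoters with Ezh2 spanned 30500 bp in the median in control and 30400 bp in kd. Over the 8 without Ezh2 they spanned 6100 bp in control. At the 5 of these still called in kd (Foxa3, Foxj1, Foxn3, Foxn4 and Foxo1) the median was 12400 bp in control and 6600 bp in kd.

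The H3K27me3 call held at 18 of the 18 bivalent promoters with Ezh2, so that the share without it in kd was 0% with an upper limit of 17.6%, against 0.294% of all bivalent promoters with Ezh2. Of the 8 without Ezh2, 3 had no H3K27me3 call in kd, 37.5% (13.7 to 69.4%), against 24.2% of all such promoters. H3K27ac reached the promoter in kd at 2 of the 18 (Foxd1 and Foxd3), 11.1% (3.10 to 32.8%), against 12.5%, and at 4 of the 8 (Foxa3, Foxo1, Foxo3 and Foxo4), 50.0% (21.5 to 78.5%), against 30.2%. With 8 and 18 promoters these intervals are wide and include the shares over all genes. Most of these H3K27ac calls were weak. Their SICER -log10 p was 25.2 at Foxo3, 8.18 at Foxd1, 7.77 at Foxa3, 6.72 at Foxd3, 6.03 at Foxo1 and 5.09 at Foxo4. The lowest value in the kd list was 5.00, and of these promoters only Foxo3 reached the stricter threshold of 10 used below.

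The 3 members that left the bivalent class had an H3K27me3 call at the promoter in control and none in kd. Foxo3 (chr10:42181841-42276755), a FoxO factor of stress resistance and quiescence, had 2800 bp of H3K27me3 in control and none in kd, and no H3K27ac in control against a 5200 bp island over its start in kd. Its Smarca4 score was 468 in control and 439 in kd. Foxo4 (chrX:101254528-101260873), its relative on the X chromosome, had 4800 bp of H3K27me3 in control and none in kd, and H3K27ac islands of 2200, 1800 and 3600 bp in kd alone. The 2200 bp island, the one at its promoter, had a -log10 p of 5.09, close to the lowest of the list. Foxj2 (chr6:122819914-122845366), a forkhead activator, had 6400 bp of H3K27me3 in control and none in kd, without any H3K27ac call, and it became H3K4me3 only. Its Smarca4 score was 333 in control and, at 546, the highest of the family in kd. Foxo1, the insulin-regulated FoxO factor, kept an H3K27me3 call, but its covered length was 2865 bp in control and 465 bp in kd, and an H3K27ac island of 2600 bp over its start was called in kd alone. Foxo6, a brain-enriched FoxO factor, was unlike these 3 relatives, with 21271 bp of H3K27me3 in both conditions, Ezh2 over 3254 bp in control and 4488 bp in kd, and no H3K27ac.

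Of the 5 members with H3K4me3 only in control, 4 were active in kd, namely Foxh1, Foxk1, Foxp3 and Foxp4, while Foxk2 was not. Over all genes of this class 2345 of 4823, or 48.6%, made the same step. Foxh1 (chr15:76668225-76669948), the partner of Smad proteins in Nodal signalling, had in kd alone an H3K27ac island of 3400 bp that covered 86.2% of its gene region, with Smarca4 over 77.7% in control and 81.0% in kd. Foxp4 (chr17:47867133-47924645), a regulator of lung and heart development, had in kd alone an H3K27ac island of 4600 bp over its start. Foxk1, a repressor tied to metabolism, and Foxp3, the regulator of regulatory T cells, each had an island of 1200 bp in kd alone. The -log10 p of these islands was 11.8 at Foxk1 and 9.16 at Foxp3, against 30.4 at Foxh1 and 35.2 at Foxp4. Foxm1, the activator of mitotic genes, and Foxn2 were active in both conditions. Foxm1 had a promoter island of H3K27ac of 2600 bp in control and 4000 bp in kd, and a Smarca4 score of 203 in control and 296 in kd. At Foxn2 the promoter island of 7800 bp in control was called as 3200 and 3600 bp pieces in kd, and the Smarca4 score was 355 in control and 502 in kd.

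Among the 10 members whose promoter had H3K27me3 but no H3K4me3 in control, 3 promoters were bivalent in kd, 3 had neither mark in kd and 4 kept their class. Over all 3007 promoters of this class the shares were 22.9%, 29.3% and 44.2%, so that the members' counts were near those of all genes. Foxa2 (chr2:148042877-148046969), the pioneer factor of endoderm and floor plate, had no H3K4me3 in control and 3000 bp in kd. Its gene region lay wholly within H3K27me3 in both conditions, Ezh2 covered 2710 bp in control and 3354 bp in kd, and Smarca4 covered 1075 bp and 585 bp. In kd alone, Foxb2 had an H3K4me3 island of 3000 bp and Foxl1, a factor of the gut mesenchyme, one of 2400 bp. Foxi1, a regulator of inner ear and ionocytes, had 2800 bp of H3K27me3 in control and none in kd. Foxr1 had 7228 bp in control and none in kd, and in kd alone an H3K27ac island of 4000 bp, 52.6% of it repeat-masked. Foxj3 had 3797 bp of H3K27me3 near the GENCODE start in control and none in kd. Its H3K4me3 island, 5200 bp in control and 4800 bp in kd, began 1597 bp inside the gene, outside the window around the GENCODE start that set its class, so its class names do not mean that the gene lacked H3K4me3. It had 2 H3K27ac islands in control and 3 in kd, of which the nearest to the start, 3000 bp in control and 1800 bp in kd, began 2597 bp and 2197 bp inside the gene. Foxi2, Foxn1, Foxq1 and Foxs1 kept their class. Foxq1 too had H3K4me3 inside its gene but outside the promoter window, 2800 bp in control and 2400 bp in kd. Its Smarca4 calls (2069 bp in control and 2324 bp in kd) and Ezh2 calls (1996 and 2763 bp) also lay outside that window. Foxr2, the member with neither mark, carried H3K27ac over its start in both conditions, 3400 bp in control and 3200 bp in kd.

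Smarca4 was called at 43 of the 44 Fox gene regions in control, 97.7% (88.2 to 99.6%), against 70.3% of all genes, and at 42 in kd, 95.5% (84.9 to 98.7%), against 71.7%. Foxi1 (a 255 bp peak in control) and Foxi2 (1166 bp in control) were called in control alone, against 2.45% of all genes, and Foxs1 (227 bp in kd) in kd alone, against 3.85%. The covered length was the larger difference. It was smaller in kd at 34 of the 44 members, 77.3% (63.0 to 87.2%), against 57.6% of all genes called, and larger at 10, 22.7% (12.8 to 37.0%), against 42.3%. Summed over the family, Smarca4 peaks covered 170650 bp in control and 109988 bp in kd. At the 41 members called in both, the log2 ratio of covered bases (kd over control) had a median of -0.47, against -0.13 over all genes. It was lowest at Foxn3 (-1.58), Foxd4 (-1.37) and Foxo6 (-1.23) and highest at Foxp3 (0.41).

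Foxn3, Foxp1, Foxp4 and Foxo6, named here after their values were seen, held 75136 of these bases in control and 36293 in kd. Foxn3, a repressor with a gene of 373505 bp, had 38 Smarca4 peaks over 23145 bp in control and 17 over 7760 bp in kd. Foxp4 had 30 peaks over 23934 bp in control and 25 over 13625 bp in kd, and Foxp1, which is tied to lymphocyte, heart and brain development, 39 over 18897 bp and 18 over 10995 bp. Foxo6 had 12 peaks over 9160 bp in control and 6 over 3913 bp in kd. Of the 240 distinct Smarca4 peaks at members in control, 103 (42.9%) overlapped no kd peak, close to the 43.9% of the whole list, and 68 of the 103 lay in Foxn3, Foxp1, Foxp4 and Foxo6. Of 171 kd peaks at members, 20 (11.7%) overlapped no control peak, against 35.6% of the whole kd list. The whole lists differ from the members in make-up. Mostly repeat-masked peaks made 9.52% of the whole Smarca4 list in control and 19.8% in kd, against 4 of the 240 and 3 of the 171 peaks at members. On the X chromosome, which holds Foxo4, Foxp3 and Foxr2, the bases covered by the whole Smarca4 list were 1.37 times those of control in kd, and on the other chromosomes but Y 0.748 to 0.916 times. The part of this in the values of these 3 genes was not tested.

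**Figure D3:**
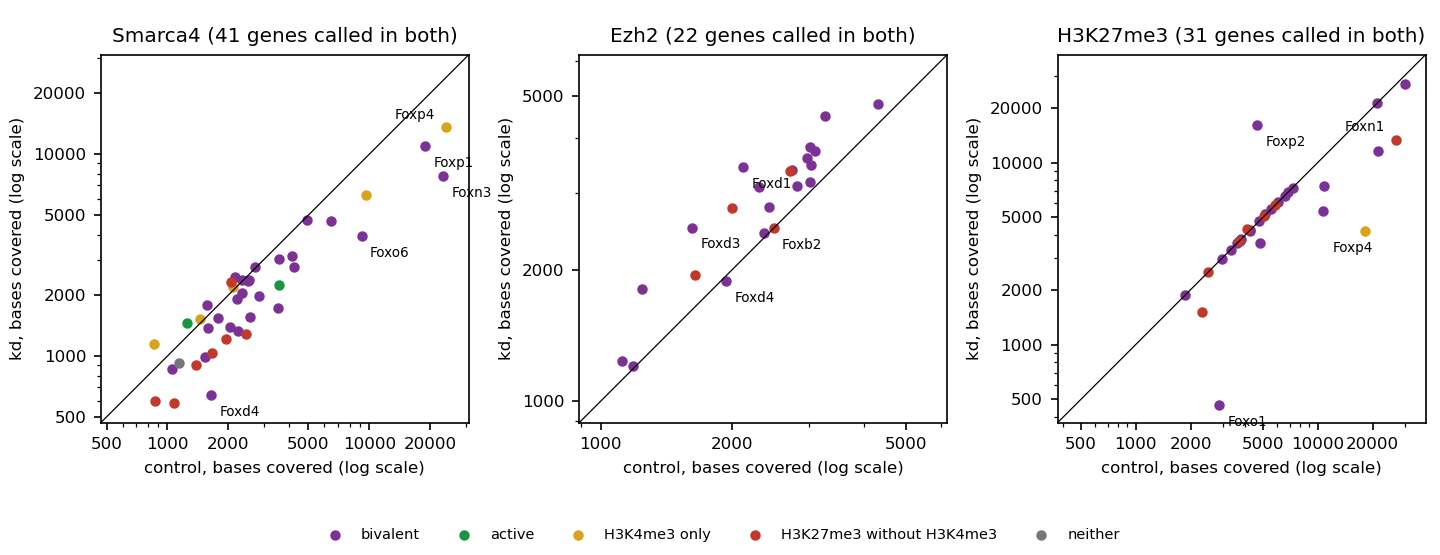
Bases of the gene region inside called regions in control (x axis) and kd (y axis), both on log scales, for the Fox genes called in both lists of Smarca4, Ezh2 and H3K27me3, coloured by promoter class in control, with the line of equality. Most Smarca4 points lie below the line, most Ezh2 points lie above it, and 19 of the H3K27me3 genes lie exactly on it.

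The highest Smarca4 scores at the members, which MACS2 derives from the significance of each peak and which are not scaled between libraries, were 477 at Foxo6, 468 at Foxo3 and 458 at Foxp4 in control. In kd they were 546 at Foxj2, 515 at Foxp1 and 502 at Foxn2. At the 41 members called in both, the score was lower in kd at 26, against 48.3% of all genes called in both, and higher at 15, against 51.2%. Ranked within its own list, the median member sat at percentile 91.5 of Smarca4 peaks in control, with 23 of 43 members in the top 10%, and at percentile 82.6 in kd, with 13 of 42. This sets the best peak of each gene region among single peaks, so a gene with many peaks ranks by its highest. The same share over all genes was not computed, so these ranks are not a trait of Fox genes. Foxd3, a repressor needed by pluripotent cells and neural crest, scored 450 in control and 296 in kd.

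Ezh2 was called at 24 of the 44 gene regions in control, 54.5% (40.1 to 68.3%), against 12.6% of all genes, and at 25 in kd, 56.8% (42.2 to 70.3%), against 15.4%. The control-alone calls were at Foxk2 (250 bp) and Foxn3 (279 bp), against 3.19% of all genes. Both peaks lay inside the genes, 17238 bp and 100043 bp from the start, and were mostly repeat-masked. The kd-alone calls were at Foxi2 (560 bp), Foxn4 (615 bp), a retinal and spinal cord factor, and Foxp4 (470 bp), against 5.96% of all genes, and these 3 peaks lay at the promoter. Foxi2 was thus called for Smarca4 in control alone and for Ezh2 in kd alone at the same start. Over the 27 members with a call, Ezh2 covered more bases in kd at 23, 85.2% (67.5 to 94.1%), against 79.7% of all genes called, and fewer at 3 (Foxd4, Foxk2 and Foxn3), against 20.2%. The median log2 ratio of the 22 called in both was 0.26 (-0.04 to 0.69), against 0.70 over all genes. The share of members with more covered bases was thus near the share of all genes, while their median ratio was smaller.

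In control the highest Ezh2 scores were 1185 at Foxf1, a factor of lung and gut mesenchyme, 772 at Foxc2, a factor of lymphatic vessels, and 734 at Foxa2. In kd they were 1412 at Foxd1, a factor of kidney stroma and retina, 1352 at Foxc2 and 1266 at Foxf1. The score was higher in kd at 21 of the 22 members called in both, against 92.3% of all genes called in both. The exception was Foxa2, with 734 in control and 438 in kd, and the score was lower in kd at 7.60% of all genes. Foxd3 had the lowest control score of the family, 33, at percentile 9.72 of its list, and 334 in kd, at percentile 79.3, with covered lengths of 1619 and 2495 bp. The lists differ in length and in their repeat-masked share, so a percentile places a member within its own list and is no measure of change between them. The median member stood at percentile 96.8 of Ezh2 peaks in control, with 18 of 24 in the top 10%, and at percentile 93.2 in kd, with 13 of 25. As for Smarca4, the best peak of each gene region was ranked among single peaks. The same share over all genes called for Ezh2 was not computed.

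**Figure D4:**
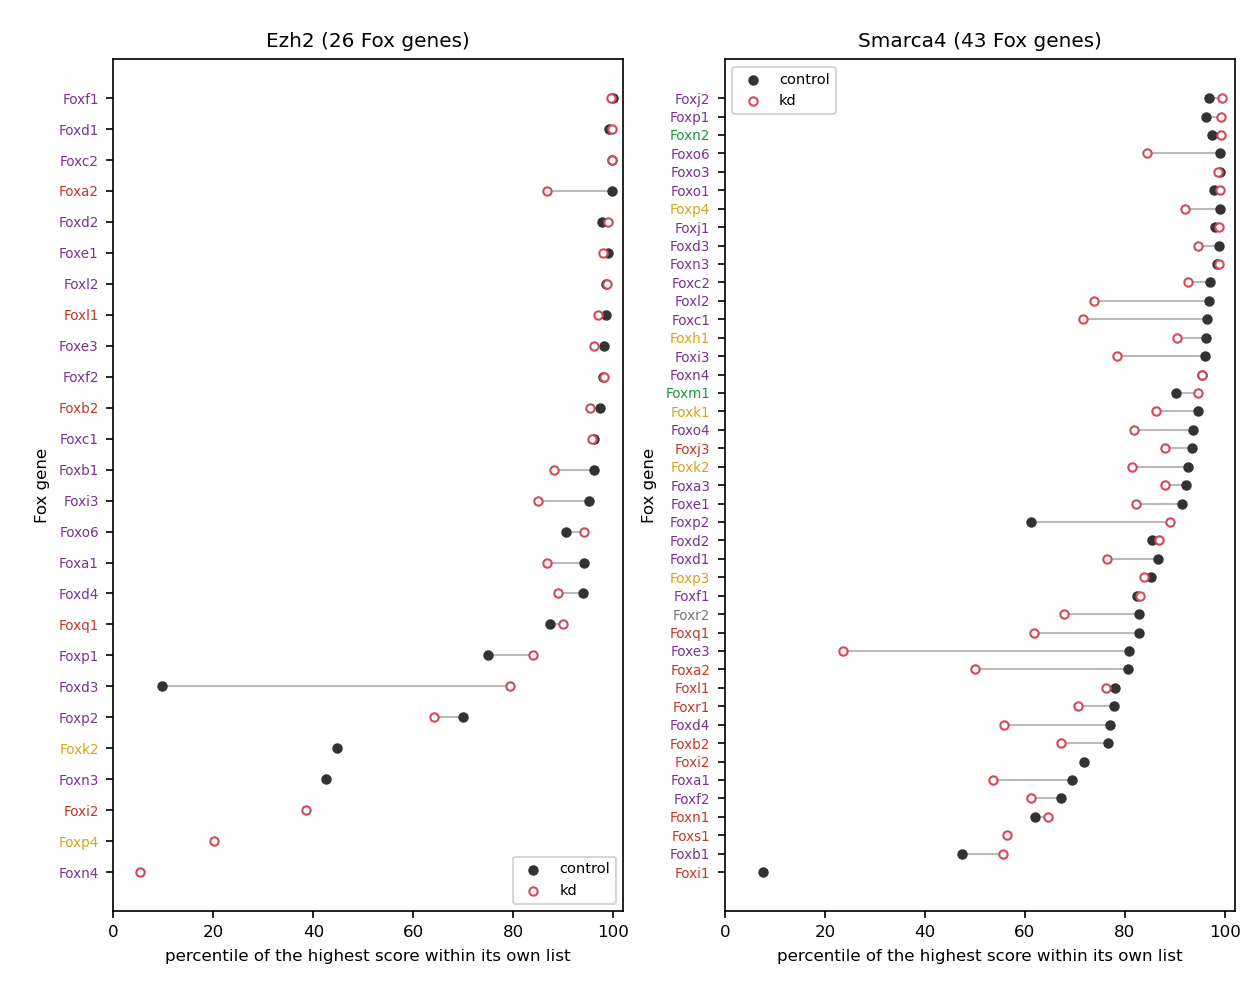
Percentile of the highest Ezh2 score (left, 26 genes) and Smarca4 score (right, 43 genes) at each Fox gene region within its own list, in control (filled) and kd (open), with gene names coloured by promoter class in control (purple bivalent, green active, yellow H3K4me3 only, red H3K27me3 without H3K4me3, grey neither). Most Ezh2 points lie near the top of their lists, and Foxd3 lies at percentile 9.72 of the control list and 79.3 of the kd list, which differ in length and make-up.

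H3K27me3 was called at 37 gene regions in control, 84.1% (70.6 to 92.1%), against 42.4% of all genes, and at 31 in kd, 70.5% (55.8 to 81.8%), against 35.6%. The 6 control-alone members, Foxi1, Foxj2, Foxj3, Foxo3, Foxo4 and Foxr1, made 13.6% (6.40 to 26.7%), against 9.74%, and none was called in kd alone, which allows a share of up to 8.03%, against 2.95%. These 6 had no Ezh2 call in either condition, which was also so for 17867 of all 21938 genes. The share among all genes called for H3K27me3 in control alone was not computed. Of the 37, 19 had the same covered length in both conditions, because the whole gene region lay inside an island. The length was smaller in kd at 15, 40.5% (26.3 to 56.5%), against 61.6% of all genes called, and larger at 3, 8.11% (2.80 to 21.3%), against 27.1%. These shares cannot be set against each other directly, since an equal length was found at only 11.3% of all genes called. Among the 18 members whose length differed it was smaller at 15, 83.3% (60.8 to 94.2%), against 69.5% of all such genes. In windows of 1 kb around the TSS it was smaller at 9 members and larger at 1. Foxp4 had 18200 bp in control and 4200 bp in kd, outside its promoter, and Foxn1, the factor of thymic epithelium and hair, had 26758 and 13358 bp. Foxp2, known for its part in vocal learning, had 4652 bp in control and 16052 bp in kd.

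H3K27ac was scarce at the family in control, with 8 gene regions called, 18.2% (9.51 to 32.0%), against 32.4% of all genes. In kd 19 were called, 43.2% (29.7 to 57.8%), against 48.2%. The 11 kd-alone members, Foxa3, Foxd1, Foxd3, Foxh1, Foxj1, Foxk1, Foxo1, Foxo3, Foxo4, Foxp3 and Foxr1, made 25.0% (14.6 to 39.4%), against 18.9% of all genes, and no member was called in control alone, against 3.06%. The kd-alone count was 5 with the stricter threshold, which kept islands with a -log10 p of at least 10, and 7 with lists of equal length. At 10 of the 11 an island reached the promoter, and at Foxj1 it lay 2999 bp inside the gene. At Foxd3 the 3400 bp island called in kd overlaps a control island of 15400 bp, which ends just outside the gene region, at position -1098 from the start. The islands of the other 10 overlap no control island. Of the 19 members with a call, 15 were covered over more bases in kd, 78.9% (56.7 to 91.5%), against 65.9%, and 4 over fewer, 21.1% (8.51 to 43.3%), against 30.0%. The first count was 9 with the stricter threshold. Foxn3 had 7800 bp in control and 22600 bp in kd, inside its gene. The H3K27ac islands of Foxp2 in kd were 94.7% or more repeat-masked, and over the whole lists 79.1% of islands in control and 74.1% in kd were mostly repeat-masked.

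H3K4me3 was called at 35 gene regions in control, 79.5% (65.5 to 88.8%), against 63.4% of all genes, and at 38 in kd, 86.4% (73.3 to 93.6%), against 68.1%. Foxa2, Foxb2 and Foxl1 were called in kd alone, 6.82% (2.35 to 18.2%), against 5.49%, and no member in control alone, against 0.825%. Covered length was smaller in kd at 15 of 38 members, 39.5% (25.6 to 55.3%), against 47.2%, and larger at 17, 44.7% (30.1 to 60.3%), against 42.8%. The island over the Foxd3 start was 11800 bp long in control. In kd its span was called in pieces, of 7600 bp over the start and 2800 bp further upstream.

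Of 4 neighbouring pairs of Fox genes with starts within 100 kb, 2 lay under a common H3K27me3 island in both conditions. Foxf1, Foxc2 and Foxl1 follow each other on chromosome 8, with starts 31785 and 11769 bp apart. In control an island of 51000 bp covered Foxf1 and another of 29800 bp covered Foxc2 and Foxl1 together. In kd the islands over these genes were 32000 and 25600 bp long, and a separate island of 6800 bp lay upstream of Foxf1, within the span of its control island. Ezh2 peaked at the 3 promoters in both conditions, with scores of 1185, 772 and 507 in control and 1266, 1352 and 819 in kd. H3K4me3 was at Foxf1 and Foxc2 in both conditions and at Foxl1 in kd alone. On chromosome 4, Foxd2 and Foxe3, a factor of the lens, have starts 17140 bp apart and shared an H3K27me3 island of 51800 bp in control and 57600 bp in kd. Foxq1 and Foxf2 on chromosome 13 have starts 69682 bp apart and separate islands, of 10000 and 31400 bp in control and 24000 and 30000 bp in kd. Genes under a shared island are not independent observations of H3K27me3.

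**Figure D5:**
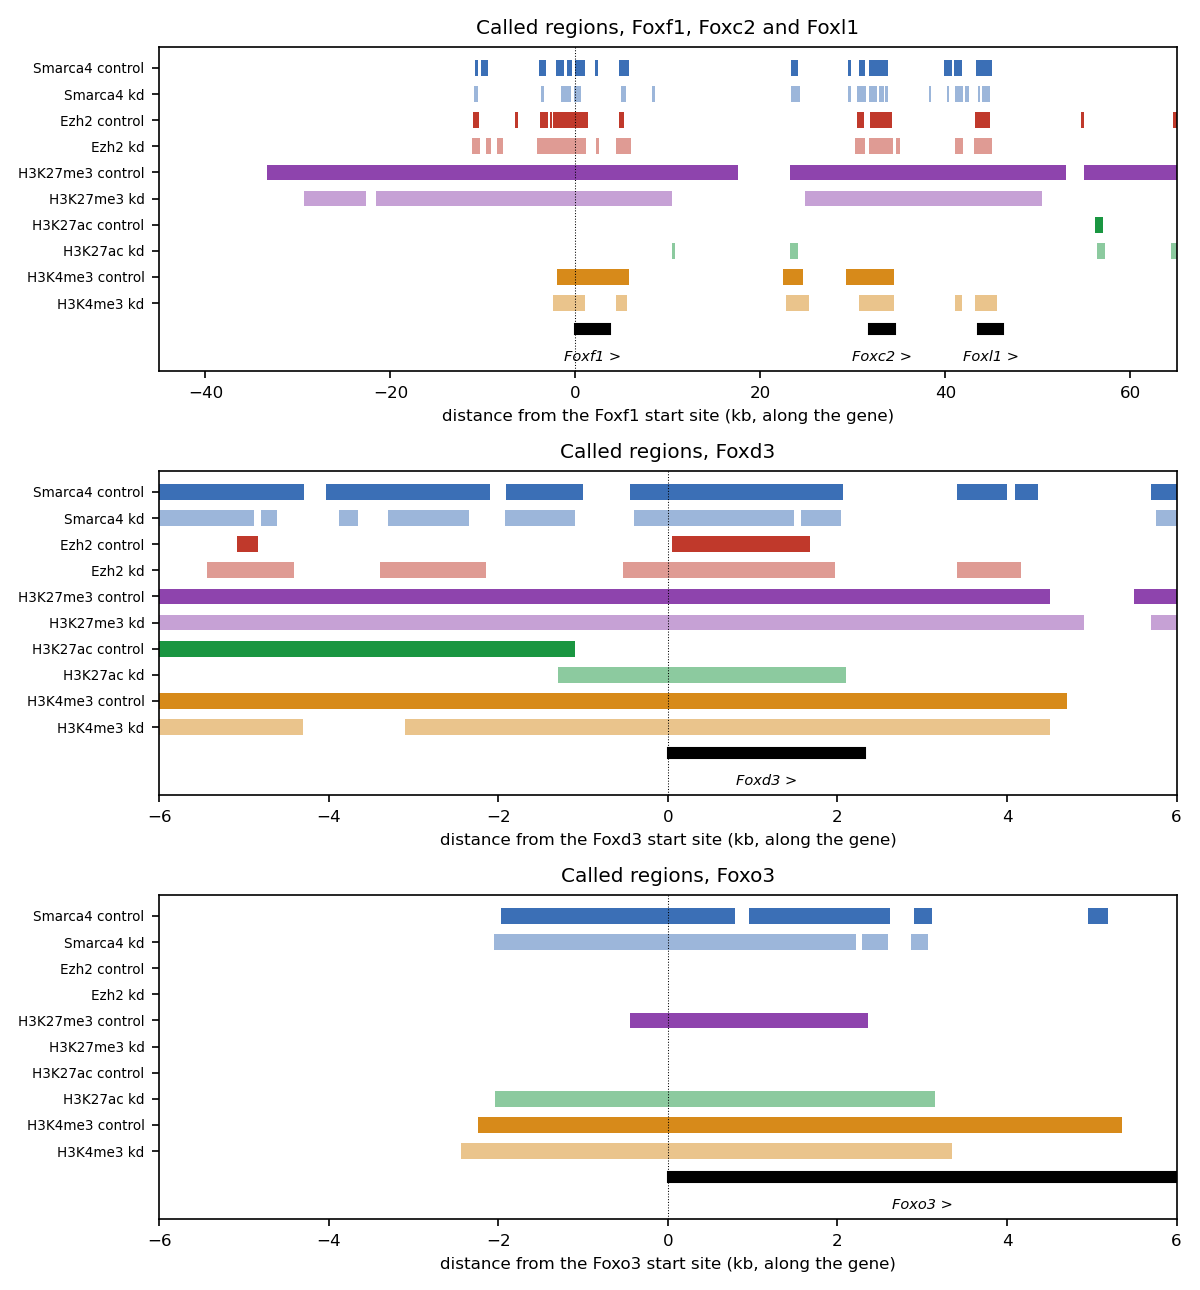
Called regions of the 10 lists (rows, full colour for control and pale for kd) around Foxf1, Foxc2 and Foxl1, around Foxd3 and around Foxo3, with distance from the start site in kb along the gene on the x axis and genes in black. Foxl1 has H3K4me3 in kd alone, the control H3K27ac island of Foxd3 ends upstream of its start, and at Foxo3 H3K27me3 is called in control alone and H3K27ac in kd alone.

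Of the 14 subfamilies with at least 2 members, 6 (Foxc, Foxd, Foxe, Foxf, Foxk and Foxo) were of 1 class in control and 8 (Foxa, Foxb, Foxi, Foxj, Foxl, Foxn, Foxp and Foxr) were split between classes. The Foxc, Foxd, Foxe and Foxf members, 10 genes, were bivalent with Ezh2 at the promoter and wholly under H3K27me3 in both conditions. In the Foxo subfamily 4 of 4 were bivalent in control and 2 in kd, with H3K27ac at 0 of 4 gene regions in control and 3 in kd. In the Foxp subfamily Foxp1 and Foxp2 stayed bivalent, and Foxp3 and Foxp4 went from H3K4me3 only to active. The Foxa members were 2 bivalent in control and 3 in kd, with Foxa1, the relative of Foxa2 in endoderm, under 7289 bp of H3K27me3 in both conditions, and Foxa3, a liver factor, under 10717 bp in control and 5400 bp in kd.

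Genes that work with these factors did not share a single class. Of 12 Foxh1 partners and targets, 5 promoters were active (Nodal, Gdf3, Tdgf1, Smad2 and Smad4) and 6 bivalent in control, and 5 were active and 6 bivalent in kd, with Lefty2 new among the active and Smad4 no longer. Of 12 FoxO regulators and targets, 3 were active in control and 4 in kd, and 7 and 6 were bivalent, with Insr, the insulin receptor, H3K4me3 only in kd. Of 8 Foxm1 targets, 4 were active in control and 6 in kd, with Plk1, Aurkb and Ccna2 added and Cenpf no longer among them. Over all genes 13.4% of promoters were active in control and 25.1% in kd, and 48.6% of those with H3K4me3 only in control were active in kd. Smarca4 was called at 12 of 12, 12 of 12 and 8 of 8 of these gene regions in both conditions. Over all genes it was called at 70.3% of gene regions in control and 71.7% in kd. In control it was at 91.1 to 97.5% of all promoters in the 3 classes with H3K4me3, the mark that most of these genes carried.

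Beside other families of developmental regulators, the Fox genes resembled the 19 Sox genes in control, of which 13 were bivalent and 2 active. The 39 Hox genes, which pattern the body axis, had 13 bivalent promoters in control and 21 in kd, with the other 26 and 18 under H3K27me3 without H3K4me3. Ezh2 was called at 37 Hox gene regions in control and 39 in kd, and at 11 and 16 Sox gene regions. The median log2 ratio of Ezh2 covered bases was 0.68 for Hox and 0.45 for Sox genes, against 0.26 for Fox genes. That of Smarca4 was -0.20, -0.23 and -0.47. H3K27ac was called at 0 Hox gene regions in either condition and at 6 Sox gene regions in control and 10 in kd. These family differences were not tested, since the genes share their libraries and are not replicates.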

How the data were processed

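ChIP-seq of 5 antibodies in control and Smarcb1 kd cells was analysed from 10 deposited lists, 1 per antibody and condition, of a series of 14 samples that also holds 4 inputs. By the methods and the submitters' processing notes, the authors trimmed reads with Trim Galore, aligned them to mm10 with Bowtie2, kept unique alignments with SAMtools 1.9 and called regions in each library. The deposited Smarca4 and Ezh2 peaks carry the authors' MACS2 score, a whole number of at least 13. The deposited islands of histone marks carry the authors' SICER p-value (200 bp windows, 600 bp gaps). The methods name input as background and the labels IgG. Smarca4 and H3K27me3 were processed by a company and the other antibodies in the authors' laboratory, so antibody and source cannot be told apart. Scores and covered lengths are not compared between antibodies. The promoter classes, the split of bivalent promoters by Ezh2 and the description of Foxi2 do combine calls from both sources. Depth is not given in the lists.

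Covered bases, overlaps and classes were computed with Python 3.11.15 and pandas 2.3.3, on chromosomes 1 to 19, X and Y with GENCODE M21 genes, and tested on simulated lists. CpG content was read from GRCm38.p6. Repeat-masked regions are those with at least 50% lower-case bases in this reference. Intervals are 95% Wilson intervals. Comparisons between conditions are descriptions without a test. Members and gene lists were chosen with earlier results of these data known. Genes were named by rule: changed class, Smarca4 or Ezh2 called in 1 condition alone, the 3 highest scores of each list, clusters within 100 kb, and Foxd3, Foxh1, Foxo1, Foxo3, Foxp1, Foxm1, Foxa1 and Foxa2. A member and a partner gene that count in the totals are not reported here by name or value. Further members are named as examples after their values were seen. Alternatives were a stricter threshold (MACS2 score from 50 upward and SICER -log10 p from 20 upward, or from 10 for H3K27ac), an overlap of 200 bp, windows of 1 kb around the TSS (500 bp for promoters), any coding TSS, lists of equal length and no repeat-masked regions.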

Additional observations from a re-analysis of the deposited data

How the results depend on the processing

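Of 233 values recomputed for 43 results, 218 stayed within 1.5 times the count, or within 1 SD for the CpG ratio, and 15 moved. With the stricter threshold, Ezh2 covered fewer bases in kd at 5 members in place of 3, H3K27ac was called in kd alone at 5 in place of 11, and it covered more bases in kd at 9 in place of 15. In windows of 1 kb around the TSS, control-alone calls were 1 in place of 2 for Smarca4 and 0 in place of 2 for Ezh2, H3K27me3 covered fewer bases in kd at 9 in place of 15 and more at 1 in place of 3, and H3K27ac was called in control at 3 in place of 8 and covered fewer bases in kd at 1 in place of 4. With lists of equal length, Smarca4 was called in control alone at 1 member and H3K27ac in kd alone at 7 in place of 11. Without repeat-masked regions, Ezh2 was called in control alone at 0 members and covered fewer bases in kd at 1, and H3K27ac covered fewer at 2. The CpG ratio of Foxr2, alone in its class, was 0.13 in a window of 500 bp on each side of the TSS in place of 0.15. Beyond the number of features that each alternative keeps, the cause of these moves was not tested. Counts of bivalent and active promoters stayed within 1.5 times under every alternative run, and with any coding TSS 28 members were bivalent in control and 27 in kd.

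No paired analysis was possible because the labels carry no replicate numbers and each antibody and condition has 1 library. For the same reason no replicate was left out. Changes below the calling threshold, and the depth of the libraries, cannot be read from lists of called regions.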
